A study of Mus musculus with 4 samples.

Results

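The Kit or Stra8 positive cells were 260 of 1249 sorted mouse testis cells. Each carried at least 1 unique molecular identifier (UMI, the tag that lets a captured transcript be counted once) of Kit or Stra8. Each also stayed under limits for other cell types, with fewer than 3 UMIs of the spermatocyte gene Ldhc, fewer than 3 of the Sertoli cell gene Clu, and fewer than 10 summed over the spermatid genes Prm1, Prm2, Tnp1, Tnp2, Oaz3 and Smcp. Of all cells, 995 met the limits, and the 735 among them without a UMI of either gene are called the comparison cells. The counts of Kit and Stra8 chose the cells, so the levels and detection of these single genes are a description and carry no test.

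All mice were 4 weeks old, had a B6N.Cg background with the allele Eomes<tm1.1(icre/ERT2)Reb>, and carried the Eomes-iCreERt2-tdTomato knock-in, in which the Eomes locus drives the reporter. They were either Plzf +/+ or Plzf lu/lu, the latter carrying the luxoid mutation of Zbtb16, the gene of the transcription factor PLZF. Living tdTOMATO-positive cells were sorted singly into 384-well plates, with DAPI to mark dead cells and reporter-negative littermates to set the gate, so that the cells stand for that gate and not for all spermatogonia of the testis. Transcript ends were then counted by UMI. There were 5 libraries, Plzf +/+ cells of plates 1, 2 and 4 and Plzf lu/lu cells of plates 3 and 4. Plate 4 held both genotypes, and on the other plates genotype and plate cannot be told apart. The labels name no animals, so p-values measure only the spread between libraries, which may be technical.

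KIT is the receptor tyrosine kinase for KIT ligand, which Sertoli cells present, and its appearance on spermatogonia accompanies the step from the undifferentiated pool to differentiating spermatogonia. STRA8 is induced by retinoic acid, first in differentiating spermatogonia and again before meiosis. Undifferentiated spermatogonia instead depend on GDNF, which acts through the co-receptor GFRA1 and the kinase RET and maintains genes such as Etv5, Bcl6b, Lhx1, Egr2 and Id4.

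The promoters of both genes that chose the cells, and of 2 genes that were higher in them, are shown because retinoic acid receptors bind AGGTCA core sites and bHLH factors such as SOHLH1 bind E boxes such as CACGTG. Each sequence is the 250 bases upstream of the gene's start on its own strand, from RefSeq on GRCm38.p6, with AGGTCA and CACGTG on either strand in capitals. Stra8 lies at chr6:34920698-34920947 on the plus strand, Kit at chr5:75574737-75574986 on the plus strand, Sohlh1 at chr2:25847249-25847498 on the minus strand and Crabp1 at chr9:54764498-54764747 on the plus strand.
Stra8: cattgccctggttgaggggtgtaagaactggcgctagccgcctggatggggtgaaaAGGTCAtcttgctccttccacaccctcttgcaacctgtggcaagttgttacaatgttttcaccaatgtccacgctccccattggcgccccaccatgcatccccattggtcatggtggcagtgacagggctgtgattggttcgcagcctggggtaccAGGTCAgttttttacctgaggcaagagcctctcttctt
Kit: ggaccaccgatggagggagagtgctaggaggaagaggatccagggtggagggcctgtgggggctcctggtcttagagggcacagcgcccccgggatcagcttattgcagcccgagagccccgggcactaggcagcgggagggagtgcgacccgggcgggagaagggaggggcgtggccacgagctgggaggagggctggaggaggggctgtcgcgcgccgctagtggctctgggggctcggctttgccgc
Sohlh1: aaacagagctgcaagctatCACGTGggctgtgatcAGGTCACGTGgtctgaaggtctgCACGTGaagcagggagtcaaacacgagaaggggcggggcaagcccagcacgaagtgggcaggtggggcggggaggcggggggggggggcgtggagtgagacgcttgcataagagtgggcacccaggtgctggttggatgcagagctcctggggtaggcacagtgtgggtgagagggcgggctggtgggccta
Crabp1: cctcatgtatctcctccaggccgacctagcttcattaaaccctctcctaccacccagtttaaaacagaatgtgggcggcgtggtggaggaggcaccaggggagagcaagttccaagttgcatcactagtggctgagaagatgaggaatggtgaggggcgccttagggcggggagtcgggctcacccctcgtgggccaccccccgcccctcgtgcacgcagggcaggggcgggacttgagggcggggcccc
The Stra8 promoter held 2 AGGTCA motifs, whereas 13.8% of 27025 mouse promoters of this length held at least 1 and 1.31% at least 2. The Sohlh1 promoter held 3 CACGTG motifs, 1 of which overlapped its single AGGTCA. At least 1 CACGTG occurred in 6.05% of promoters and at least 3 in 0.0666%. In the windows of Kit and Crabp1 neither string of letters occurred.

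The libraries held 38 to 317 cells and 254514 to 2608702 UMIs. The small one was Plzf lu/lu plate 4, with 29 cells under the limits and 9 Kit or Stra8 positive cells. On plate 4, 5 cells of the Plzf +/+ table sat in wells that the labels give to Plzf lu/lu. None was Kit or Stra8 positive and 5 were comparison cells. In all, 358 well barcodes occurred on more than 1 plate, since the plates share 1 barcode set, and 0 were shared by both libraries of plate 4. No doublet caller was run, the cells having been sorted singly.

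Most cells were chosen on few transcripts. Of the 995 cells under the limits, 111 had exactly 1 UMI of Kit and Stra8 together, 74 had 2 to 4 and 75 had 5 or more. Kit was detected in 89 cells, 57 of them with a single UMI and none above 7. Stra8 was detected in 219 cells, 87 with a single UMI and 36 with 10 or more, up to 29. By gene, 171 cells were positive for Stra8 only, 41 for Kit only and 48 for both. Stra8 detection thus chose most of the cells, and the Kit only class is small.

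Both transcripts met in the same cells. Kit was detected in 48/219 Stra8 positive cells (21.9%, exact binomial 95% interval 16.6 to 28.0) and in 41/776 Stra8 negative cells (5.28%, 3.82 to 7.1). When each cell was thinned to 2000 UMIs, leaving out 69 shallower cells, the shares were 9.6% (5.06 to 16.2) and 1.75% (0.959 to 2.92). Intervals here and elsewhere cover counting error only.

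A single UMI can come from free RNA, so the same genes were counted in cells outside the limits. Among 29 cells rich in Sertoli cell transcripts other than Clu (a sum of at least 5000 CPM, that is counts per 1000000 UMIs, a value set after seeing the data), Kit was detected in 0 (0 to 11.9 by the exact interval, and up to 10.3% by a floor of 3 counts) and Stra8 in 1 (3.45%, 0.0873 to 17.8). Their median was 3174 UMIs, against 5695 under the limits. At 2000 UMIs Stra8 was detected in 4.0% of 25 such cells (0.101 to 20.4) and in 13.5% of cells under the limits (11.4 to 15.9), while Kit was in 0 and in 2.81% (1.84 to 4.09). In cells with at least 10 spermatid UMIs Stra8 was detected at 2000 UMIs in 8.46% (4.3 to 14.6), and in cells with at least 3 Ldhc UMIs in 11.4% (7.36 to 16.6). Kit was detected there in 0.769% (0.0195 to 4.21) and 2.48% (0.808 to 5.68). For both genes the intervals of these groups overlap that of the cells under the limits at 2000 UMIs. At all UMIs Stra8 was detected in 22.0% of cells under the limits (19.5 to 24.7), above the Sertoli-rich interval, but depths differed. Overlap of intervals from groups this small cannot show equal detection, and no test was run. These counts therefore do not settle whether detection of Stra8 or Kit separates a cell from the background measured here. At least 2 Stra8 UMIs were found in 14.1% of spermatid-rich and 16.3% of Ldhc-rich cells, against 13.3% under the limits, and at 2000 UMIs per cell in 2.31% and 4.95% against 6.26%. Cells with several Stra8 UMIs were therefore found on both sides of the limits.

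The limits themselves were rarely close. Of the positive cells, 193 had no Ldhc UMI, 241 no Clu UMI and 149 no spermatid UMI. Just inside the limits lay 12 positive cells with 2 Ldhc UMIs, 2 with 2 Clu UMIs and 0 with 9 spermatid UMIs, and just outside lay 14 with 3 Ldhc UMIs, 4 with 3 Clu UMIs and 1 with 10 spermatid UMIs. Outside the limits there were 67 cells with Kit or Stra8.

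Kit or Stra8 positive cells made up 26.1% of the cells under the limits (23.4 to 29.0). In the Plzf +/+ libraries of plates 1, 2 and 4 the share was 25.4%, 23.9% and 21.8%, against 32.2% on plate 3 and 31.0% on plate 4 for Plzf lu/lu. Both Plzf lu/lu libraries lay above all Plzf +/+ libraries. The means were 23.7% ± 1.81 (SD, n = 3) and 31.6% ± 0.849 (SD, n = 2), a difference of 7.9 percentage points with an exact permutation p = 0.1 (two-sided), the smallest that 3 against 2 libraries allow. At 2000 UMIs per cell the shares fell to 15.6%, 11.8% and 9.47% in Plzf +/+ and to 21.1% and 20.0% in Plzf lu/lu, with a difference of 8.26 points and an exact permutation p = 0.2 by the same test. The difference was smaller at 1000 UMIs per cell (4.89 points, exact permutation p = 0.1) and without the limits on other cell types (4.18 points, exact permutation p = 0.3). The depths differed between classes, since positive cells had median UMI sums of 6144 to 11123 per library and comparison cells 2687 to 5595.

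By gene, the libraries of the genotypes were apart for Stra8 and overlapped for Kit. Stra8 was detected in 20.4%, 18.1% and 17.1% of Plzf +/+ cells and in 30.6% and 31.0% of Plzf lu/lu cells, means of 18.5% ± 1.69 (SD, n = 3) and 30.8% ± 0.283 (SD, n = 2). Kit was detected in 9.86%, 9.29% and 7.11% of Plzf +/+ cells and in 9.39% and 6.9% of Plzf lu/lu cells, means of 8.75% ± 1.45 and 8.14% ± 1.76. Whether the genotype difference itself differed between the genes was not tested. Shares of cells with at least 5 UMIs of both genes together were 5.52% in Plzf +/+ and 11.5% in Plzf lu/lu (exact permutation p = 0.1).

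**Figure D1:**
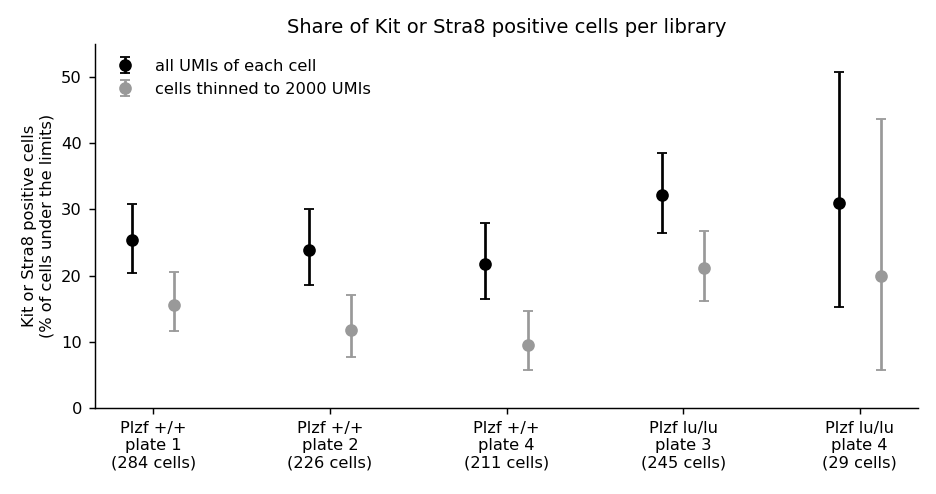
Share of cells under the limits that were Kit or Stra8 positive (%, y axis) in each of the 5 libraries (x axis), with exact binomial 95% intervals, for all UMIs of each cell (black) and for cells thinned to 2000 UMIs (grey). With all UMIs the Plzf lu/lu libraries sit at 32.2% and 31.0% and the Plzf +/+ libraries between 21.8% and 25.4%, with intervals that overlap.

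To ask what else marks these cells, each was paired within its library with a comparison cell, the larger UMI sum exceeding the smaller by at most 25%, giving 255 pairs from the 260 cells. UMIs were summed per library and class, and the 10 sums were tested with edgeR's quasi-likelihood test with the library as a block. Kit, Stra8 and the 8 genes of the limits were left out of the test. Adjusted p-values are Benjamini-Hochberg values over all genes tested, called below 0.05, and levels of library sums are in CPM of edgeR's scaled (TMM) library sizes. The pairs did not differ detectably in genes per cell (3393 and 3371, exact permutation p = 0.875) or in the mitochondrial share of UMIs (5.234% and 5.228%, exact permutation p = 1.0). Of 6951 genes, 228 were called (3.28%), 103 higher in Kit or Stra8 positive cells (1.48%) and 125 lower (1.8%). DESeq2 called 26, all among the 228.

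Stem cell and self-renewal genes were lower. Of 15 tested, 6 fell (Lhx1, Egr2, Dusp6, Id4, Bcl6b and Gfra1) and none rose, where 1.8% of all genes fell. Their median log2 fold change was -0.53 against -0.00 for all genes. The list was chosen with earlier results of these data known. DESeq2 called 2 of its members, and the Plzf +/+ libraries alone gave 3. In cells without any Ldhc, Clu or spermatid UMI (109 pairs) 1 of 10 fell, Egr2 (-1.01), against 0.621% of 3059 genes tested, while Gfra1 (-0.21), Id4 (-0.11) and Dusp6 (-0.30) had smaller values without a call.

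Lhx1, a LIM homeobox factor downstream of GDNF, had 38.5, 66.8 and 44.4 CPM in the positive cells of Plzf +/+ plates 1, 2 and 4 and 12.9 and 0 CPM in those of Plzf lu/lu plates 3 and 4. Their matched comparison cells had 123, 125, 154, 49.2 and 21.1 CPM in the same order. It was lower in 5 of 5 libraries, with a log2 fold change of -1.49 (SE 0.22, edgeR adjusted p = 1.43e-08), and was detected in 14.9% of positive and 30.2% of comparison cells. On Plzf lu/lu plate 4, with 6 pairs, 1 UMI was worth about 20.8 CPM, so that its values rest on single transcripts.

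Egr2, an early growth response factor that GDNF induces, had 160, 191, 95.5, 71.1 and 41.6 CPM in positive cells and 265, 318, 271, 146 and 21.1 CPM in comparison cells. It was lower in 4 of 5 libraries, the exception being Plzf lu/lu plate 4 (log2 fold change -0.92, SE 0.14, edgeR adjusted p = 2.3e-08). Gfra1, the GDNF co-receptor, had 202, 233, 225, 105 and 146 CPM against 261, 292, 240, 227 and 147 CPM. Gfra1 was lower in 5 of 5 libraries, by little on Plzf lu/lu plate 4 (log2 fold change -0.47, SE 0.13, edgeR adjusted p = 0.00881). The call for Gfra1 was lost without Plzf +/+ plate 1 or without Plzf lu/lu plate 3.

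Id4, an inhibitor of DNA binding that marks stem cells, had 59.7, 74.2, 102, 64.6 and 104 CPM in positive cells and 94.5, 185, 99.5, 127 and 126 CPM in comparison cells. Id4 was lower in 4 of 5 libraries (log2 fold change -0.78, SE 0.18, edgeR adjusted p = 0.00143), without a call when Plzf +/+ plate 2 or Plzf lu/lu plate 3 was left out. Dusp6, a phosphatase of ERK, was lower in 5 of 5 libraries (log2 fold change -0.67, SE 0.18, edgeR adjusted p = 0.00733), a call lost without Plzf lu/lu plate 3. Bcl6b, a GDNF-regulated repressor, had a log2 fold change of -0.81 (SE 0.25, edgeR adjusted p = 0.0389), lower in 5 of 5 libraries, and lost its call in 4 of the 5 fits that each left out a library.

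The other stem cell genes did not pass. Ret, the GDNF receptor kinase, had 69.3, 116, 133, 80.7 and 104 CPM against 113, 138, 134, 158 and 126 CPM (log2 fold change -0.52, edgeR adjusted p = 0.05, lower in 5 of 5 libraries). Zbtb16 itself had 46.2, 54.4, 119, 17.8 and 20.8 CPM against 117, 65.2, 89.2, 25.5 and 21.1 CPM (log2 fold change -0.45, edgeR adjusted p = 0.34). Its ranges overlapped, and plate 4 of Plzf +/+ went the other way. Etv5 (-0.49), Itga6 (-0.53), Tspan8 (-0.76) and T (-0.68) had log2 fold changes below 0 without a call.

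Among genes of differentiating spermatogonia, 3 of 14 rose (Crabp1, Dnmt3b and Uchl1) and none fell, where 1.48% of all genes rose. The list as a whole did not shift. Its median was -0.02, and 6 of 14 had a log2 fold change above 0, against 49.7% of all genes. Crabp1, a cellular retinoic acid binding protein, had 198, 203, 171, 436 and 167 CPM in positive cells and 119, 115, 110, 161 and 63.2 CPM in comparison cells, means of 235 ± 114 and 114 ± 34.9 (SD, n = 5). It was higher in 5 of 5 libraries (2.02-fold, log2 fold change 1.02, SE 0.14, edgeR adjusted p = 1.56e-10). The highest value in either class belonged to Plzf lu/lu plate 3.

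Dnmt3b, a de novo DNA methyltransferase, had 94.3, 71.8, 109, 80.7 and 20.8 CPM in positive cells and 42.2, 15.6, 20.6, 27.2 and 21.1 CPM in comparison cells. It was higher in 4 of 5 libraries and equal to 1 UMI in both classes of Plzf lu/lu plate 4 (3.1-fold, log2 fold change 1.63, SE 0.25, edgeR adjusted p = 3.22e-08). Its relatives Dnmt3a (log2 fold change -0.25, edgeR adjusted p = 0.45) and Dnmt1 (0.07, edgeR adjusted p = 0.878) did not pass. Uchl1, a ubiquitin hydrolase abundant in spermatogonia, had 924 to 1210 CPM against 665 to 1030 CPM and was higher in 5 of 5 libraries (log2 fold change 0.42, SE 0.08, edgeR adjusted p = 8.04e-06). Uchl1 was also detected in 84.9% of all comparison cells, so its presence does not single out differentiating cells.

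Of the retinoic acid pathway, 4 genes were abundant enough to test. Crabp1, described above, was the one that rose and the only one with a log2 fold change above 0. The receptors Rara, Rarb and Rarg were too low to test. Of 35 KIT signalling genes tested, 1 rose and none fell, near what the 1.48% of all genes that rose would give. Their median was -0.04, and 15 had a log2 fold change above 0. The 1 that rose was the kinase Mtor, higher in 4 of 5 libraries (log2 fold change 0.64, SE 0.16, edgeR adjusted p = 0.00587). In cells without any Ldhc, Clu or spermatid UMI Mtor had 0.47 without a call. Kitl, which encodes the ligand, was too low to test.

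Of 9 progenitor genes, Sohlh1 rose and the other 8 did not pass (median 0.07). Sohlh1, a bHLH factor needed for spermatogonial differentiation, had 256, 208, 181, 231 and 83.3 CPM in positive cells and 125, 125, 103, 138 and 105 CPM in comparison cells. The classes were apart in 4 libraries and reversed on Plzf lu/lu plate 4 (log2 fold change 0.81, SE 0.14, edgeR adjusted p = 2.31e-06). Its partner Sohlh2 (log2 fold change -0.1), Sall4 (0.40, edgeR adjusted p = 0.072), Lin28a (0.07) and Dmrt1 (0.11) did not pass, nor did the germ cell genes Dazl (0.08) and Ddx4 (-0.04). Of 12 germ cell identity genes, 0 were called, near what the 3.28% of all genes would give.

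Of 19 genes of meiotic entry and early meiosis, 2 rose and none fell, where 1.48% of all genes rose, and 15 had a log2 fold change above 0 (median 0.21), against 49.7% of all genes. Syce2, of the central element of the synaptonemal complex, had 287, 342, 297, 396 and 229 CPM in positive cells and 255, 214, 206, 204 and 168 CPM in comparison cells, higher in 5 of 5 libraries (1.5-fold, log2 fold change 0.59, SE 0.11, edgeR adjusted p = 4.49e-05). Sycp3, of its lateral element, was higher in 3 of 5 libraries (log2 fold change 0.42, SE 0.12, edgeR adjusted p = 0.0196) and lost its call in 3 of the 5 fits that each left out a library. In cells without any Ldhc, Clu or spermatid UMI, Syce2 (0.53) and Sycp3 (0.54) had no call. Sycp1 had a log2 fold change of 0.26 without a call, and Rec8, Prdm9 and Spo11 were too low to test.

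Cell cycle genes that were called rose, against 1.48% of all genes called higher and 49.7% with a log2 fold change above 0. Of 43 S phase genes, 4 rose (Gmnn, Hells, Mcm2 and Nasp) and none fell, 34 having a log2 fold change above 0 (median 0.13). Of 52 genes of G2 and mitosis, 8 rose and none fell, 42 having a log2 fold change above 0 (median 0.17). Gmnn, which encodes the replication licensing inhibitor geminin, had 321, 334, 188, 404 and 187 CPM against 255, 209, 175, 173 and 168 CPM. It was higher in 5 of 5 libraries, most on Plzf lu/lu plate 3 (log2 fold change 0.64, SE 0.12, edgeR adjusted p = 1.22e-05), and its call was lost without that library. Hmgb2 (log2 fold change 0.59), Tubb4b (0.52), Cenpf (0.50) and the cyclin Ccnb1 (0.53) were each higher in 5 of 5 libraries. The helicase Hells (0.40), the replication genes Mcm2 (0.33) and Nasp (0.28), the topoisomerase Top2a (0.41), and the mitotic genes Ttk (0.66), Dlgap5 (0.80) and Aurka (0.92) rose too, and each of these 7 calls was lost without at least 1 library.

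Several genes outside the lists were among the strongest. Dlk1, an imprinted transmembrane protein of the Notch ligand family, had 65.4, 32.2, 37.5, 108 and 41.6 CPM in positive cells and 10.1, 10.4, 17.2, 28.9 and 21.1 CPM in comparison cells (3.71-fold, log2 fold change 1.89, SE 0.30, edgeR adjusted p = 2.08e-07, higher in 5 of 5 libraries). Its groups did not overlap. The homeobox gene Rhox10 had 96.2, 59.4, 133, 136 and 271 CPM against 50.3, 18.2, 20.6, 59.4 and 84.2 CPM (log2 fold change 1.41, SE 0.21, edgeR adjusted p = 1.43e-08, higher in 5 of 5 libraries).

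Lower in positive cells were Tcl1, a co-activator of AKT, with 98.2, 131, 133, 51.7 and 0 CPM against 193, 214, 223, 177 and 147 CPM (log2 fold change -1.08, SE 0.15, edgeR adjusted p = 1.03e-09, lower in 5 of 5 libraries), and the nuclear long noncoding RNA Malat1 (-0.62, edgeR adjusted p = 4.21e-17, lower in 5 of 5). The Tcl1 groups did not overlap. The neurofilament gene Nefm (-1.07) and the BH3-only gene Pmaip1 (-0.89) also fell. Of the remaining genes of smallest p, Calm2, which encodes calmodulin (0.55), Marcksl1 (0.65) and the tubulin gene Tuba3a (0.46) rose, and Ptgr1 (-0.91) and AY036118 (-1.09) fell. The call for AY036118 was lost without Plzf +/+ plate 1 and with DESeq2. In cells without any Ldhc, Clu or spermatid UMI, Malat1 (-0.06), Nefm (-0.26), Rhox10 (0.61), Hmgb2 (0.34), Uchl1 (0.23) and Ttk (0.43) had log2 fold changes nearer 0 by over 1.5 times and no call. In cells with a Kit UMI, with or without Stra8, Malat1 had -0.12 without a call.

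**Figure D2:**
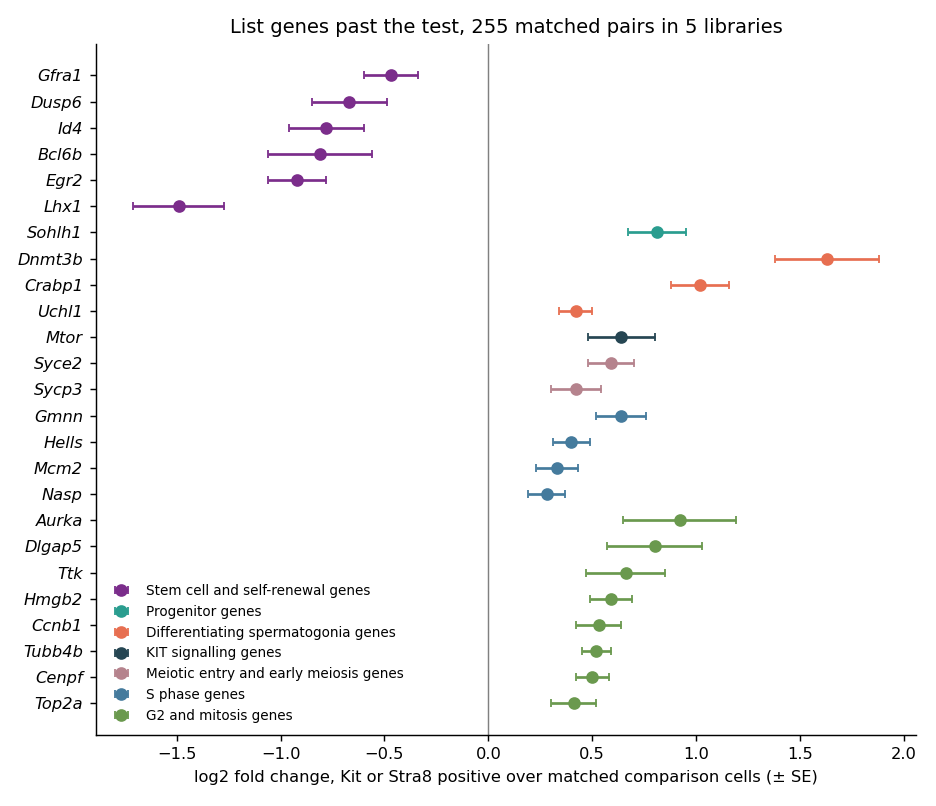
Log2 fold change ± SE (x axis) between Kit or Stra8 positive cells and matched comparison cells for list genes that were called (y axis), coloured by list. The 6 stem cell genes lie below 0, from -0.47 to -1.49, and the other genes shown lie above 0.

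**Figure D3:**
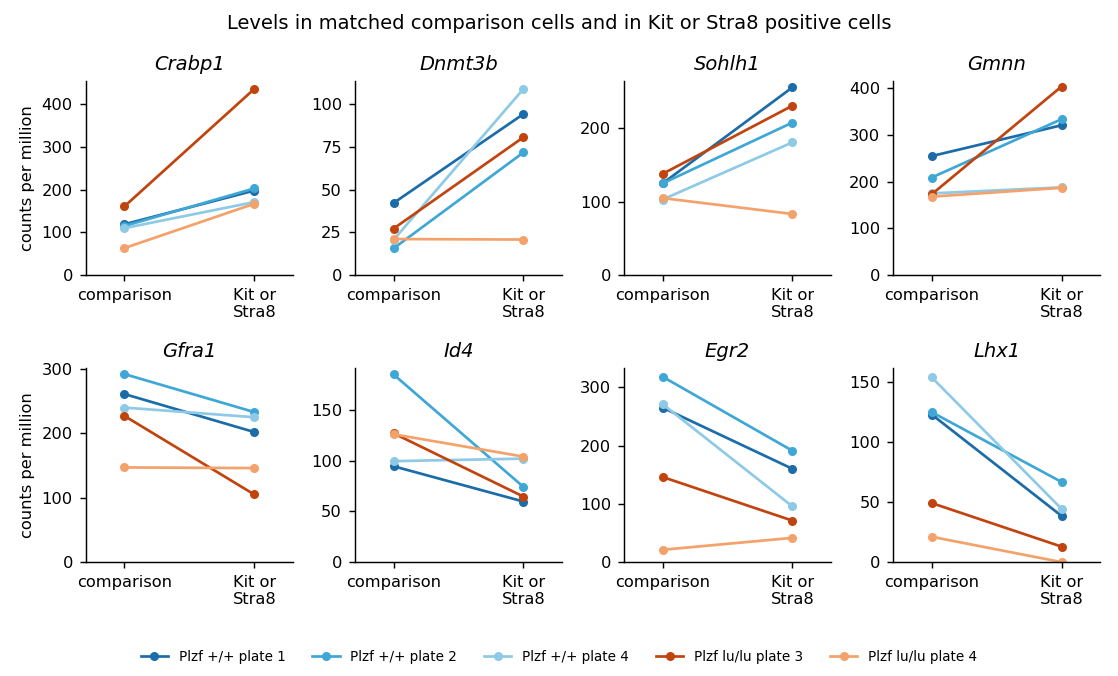
Level (CPM, y axis) of 8 genes in comparison cells and in Kit or Stra8 positive cells, with a line joining both sums of each of the 5 libraries, coloured by genotype. All 5 lines rise for Crabp1 and Gmnn, 4 rise for Dnmt3b and Sohlh1, and all 5 fall for Gfra1 and Lhx1.

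For the stem cell list, but not for every gene, these differences were larger in cells with more UMIs of Kit and Stra8. With exactly 1 UMI (109 pairs) 2 genes were called, Ccnb1 (log2 fold change 0.96, edgeR adjusted p = 0.00183) and AY036118 (-1.04), and the stem cell list had a median of -0.05 with 0 of 11 lower, against 0.0272% of the 3678 genes tested. With at least 5 UMIs (75 pairs) 277 genes were called, and the list had a median of -1.60 with 4 of 7 lower, against 5.03% of the 3456 genes tested. There Gfra1 had a log2 fold change of -1.60, Id4 of -2.09 and Tcl1 of -3.49, and Rhox10 of 2.14, Dnmt3b of 1.96, Crabp1 of 1.46, Sohlh1 of 1.34 and Gmnn of 1.14. Genes of G2 and mitosis were mixed. Of the 6 named ones in both fits, Tubb4b (0.33 and 0.71), Cenpf (0.48 and 0.84), Ttk (0.72 and 1.48) and Hmgb2 (0.62 and 0.78) had the higher value with at least 5 UMIs, while Ccnb1 had 0.80 there and Top2a had 0.73 with 1 UMI and 0.61 with at least 5. By the stem cell list, the name of differentiating cells fits those with several UMIs better than those with 1. That list was chosen with earlier results of these data known, and its medians here cover different sets of tested genes, 11 and 7.

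Pooled levels over cells with 0, 1, 2 to 4 and 5 or more UMIs show the same order as a description. The strata pool both genotypes in unequal parts. Plzf lu/lu plate 3 gave 1131264 of 4368574 UMIs with 0 and 352272 of 820900 with 5 or more. Crabp1 had 114, 137, 198 and 402 CPM, and Dnmt3b 28.6, 38.1, 62.4 and 128 CPM. By library, Crabp1 with 5 or more UMIs had 292, 319 and 225 CPM in Plzf +/+ and 548 and 311 CPM in Plzf lu/lu. With 0 UMIs it had 91.8, 117 and 94.5 CPM, and 153 and 110 CPM. Gfra1 had 263, 245, 200 and 71.9 CPM, Egr2 244, 192, 117 and 34.1 CPM, and Tcl1 185, 154, 88.1 and 15.8 CPM. Cells with 1 UMI thus lay near those with 0 for Crabp1 and Gfra1. Ret had 126, 138, 78.9 and 42.6 CPM and Etv5 121, 131, 73.4 and 32.9 CPM, lower from 2 UMIs on. Dazl, a pan-germ cell RNA-binding protein, had 1110, 1020, 1210 and 1410 CPM.

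The median UMI sums of these strata were 5344, 6148, 6079.5 and 10103, so detection was compared at 2000 UMIs per cell. Gfra1 was then detected in 39.4%, 35.5%, 29.2% and 4.0% of cells and Egr2 in 36%, 26.2%, 13.9% and 5.33%. Crabp1 was detected in 18.8%, 28%, 40.3% and 49.3% and Gmnn in 22.5%, 24.3%, 43.1% and 64%. Cells with 5 or more UMIs had the lowest shares for Gfra1 and Egr2 and the highest for Crabp1 and Gmnn, and they numbered 20, 14, 7, 31 and 3 in the 5 libraries.

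**Figure D4:**
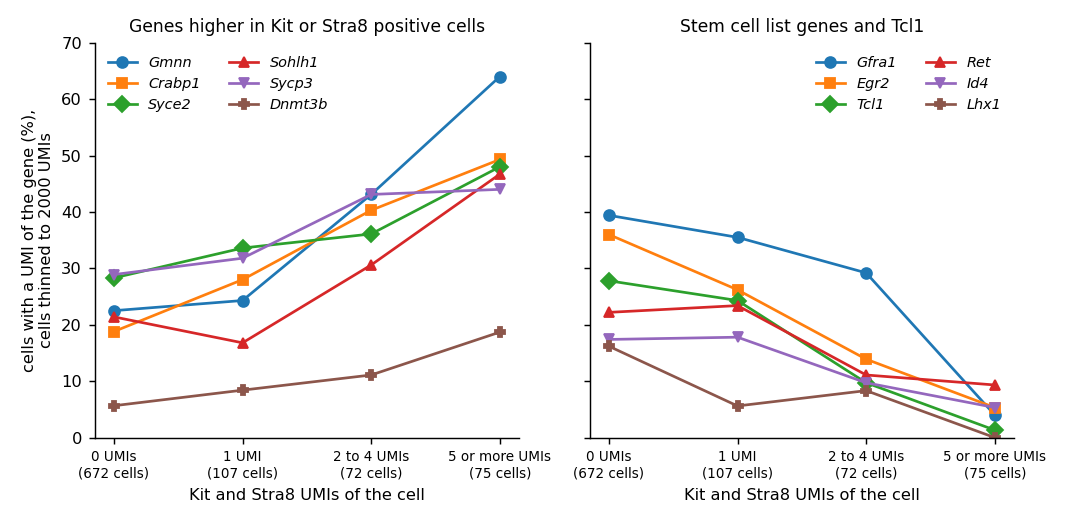
Share of cells with at least 1 UMI of each gene after thinning every cell to 2000 UMIs (%, y axis) in cells with 0, 1, 2 to 4 and 5 or more UMIs of Kit and Stra8 (x axis), pooled over libraries of both genotypes. Gfra1 runs from 39.4% to 4.0% and Gmnn from 22.5% to 64%.

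Cells with at least 2 UMIs were also matched directly to cells with 1 UMI (101 pairs), a comparison added after the data were seen. Of 3571 genes 46 were called (1.29%), 11 higher with at least 2 UMIs (0.308%) and 35 lower (0.98%), and DESeq2 called 1, Marcksl1. Of 10 stem cell genes 6 fell, with a median of -1.16, whereas of 41 G2 and mitosis genes 0 were called and 18 had a log2 fold change above 0 (median -0.07). Of 13 genes of differentiating spermatogonia 2 rose, Crabp1 and Dnmt3b, and 9 had a log2 fold change above 0 (median 0.1). Gfra1 had 166, 198, 208, 62.5 and 174 CPM with at least 2 UMIs and 423, 432, 312, 182 and 139 CPM with 1 UMI (log2 fold change -1.07, edgeR adjusted p = 0.00148, lower in 4 of 5 libraries). Ret, which had not passed between positive and comparison cells, had 71.3, 65.8, 72.5, 73.9 and 34.7 CPM against 124, 250, 237, 152 and 104 CPM, and its groups did not overlap (log2 fold change -1.35, edgeR adjusted p = 0.00148). Crabp1 had 214, 271, 227, 711 and 382 CPM against 130, 164, 152, 243 and 174 CPM (log2 fold change 1.03, edgeR adjusted p = 0.00148, higher in 5 of 5 libraries).

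Marcksl1, a substrate of protein kinase C that binds actin, had 588, 710, 508, 802 and 591 CPM against 338, 380, 284, 401 and 104 CPM (log2 fold change 0.96, edgeR adjusted p = 0.000144). Its groups did not overlap, and it was higher in 5 of 5 libraries. Calls in this comparison numbered 20 without Plzf +/+ plate 1, 19 without plate 2 and 14 without Plzf lu/lu plate 3. Of the 16 genes chosen for naming in it, 5 kept their call in every fit without a library that tested them.

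Stra8 positive and Kit only cells, matched within 4 libraries (40 pairs), differed in 1 called gene of 1814 (0.0551%). Chd4, the ATPase of the NuRD chromatin remodeller, had 671, 558, 854 and 428 CPM in Stra8 positive cells and 1840, 1610, 1340 and 744 CPM in Kit only cells of Plzf +/+ plates 1, 2 and 4 and Plzf lu/lu plate 3. Chd4 was lower in 4 of 4 libraries, with a log2 fold change of -1.19 (SE 0.22, edgeR adjusted p = 0.00179). The call was lost without Plzf +/+ plate 1 or plate 2, and DESeq2 called 0 genes, with 120 at an unadjusted p under 0.05. Dmrt1, a regulator of spermatogonial differentiation, had means of 726 ± 19.5 and 383 ± 47.3 CPM (SD, n = 4; log2 fold change 0.92, edgeR adjusted p = 0.0918, higher in 4 of 4 libraries). Of 11 meiotic genes 10 had a log2 fold change above 0 (median 0.26), and of 26 G2 and mitosis genes 6 did (median -0.26), against a median of 0.01 for all genes.

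Against matched comparison cells, all cells with a Stra8 UMI (Stra8 alone) gave 270 calls (214 pairs). All cells with a Kit UMI (Kit alone) gave 38 (89 pairs). These sets overlap, since 48 of the 89 Kit positive cells also carried Stra8. For Crabp1 the log2 fold changes were 1.11 and 1.08. For Gfra1 they were -0.69 and -0.29, and for Lhx1 -2.11 and -0.16, the Kit values without a call. Of the stem cell list 8 of 14 fell in Stra8 positive cells (median -0.73), against 2.68% of 6124 genes tested. In Kit positive cells 0 of 11 fell (median -0.34), where 0.694% of 3890 genes did, so that 0 is near the overall share. The difference between these fits was not tested.

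The next comparison asked how the Kit or Stra8 positive cells differed between genotypes. UMI sums of the positive cells of each library were compared, 2 Plzf lu/lu against 3 Plzf +/+. Zbtb16, the mutated gene, had 45.3, 51.3 and 117 CPM in Plzf +/+ and 18.0 and 12.2 CPM in Plzf lu/lu, the last from 1 UMI. Both Plzf lu/lu values lay under the lowest Plzf +/+ value (log2 fold change -1.92, SE 0.46, edgeR adjusted p = 0.00721), and the log2 fold change in comparison cells was -1.87. Of 7961 genes 217 were called (2.73%), 108 higher in Plzf lu/lu (1.36%) and 109 lower (1.37%), and DESeq2 called 13. Without Plzf lu/lu plate 3 there were 27 calls, in a fit where 1 library of 9 cells stood for Plzf lu/lu and was assumed to vary like the Plzf +/+ libraries, and without Plzf +/+ plate 1 there were 46. Of the 25 genes chosen for naming here, 4 kept their call in every fit without a library that tested them.

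Stem cell genes were lower in Plzf lu/lu also within the positive cells, where 5 of 15 fell and none rose (median -0.67, all genes -0.02). The list included Zbtb16. Gfra1 had 198, 224 and 221 CPM in Plzf +/+ and 116 and 122 CPM in Plzf lu/lu (log2 fold change -0.87, SE 0.23, edgeR adjusted p = 0.0178), a call lost in 4 of the 5 fits without a library. Lhx1 had 37.7, 63 and 43.5 CPM against 12 and 0 CPM (log2 fold change -2.15, edgeR adjusted p = 0.00804). Egr2 had 157, 180 and 93.8 CPM against 70.6 and 36.5 CPM (log2 fold change -1.16, edgeR adjusted p = 0.00571), and Dusp6 had a log2 fold change of -1.37 (edgeR adjusted p = 0.00766). The genotypes did not overlap for any of them, and in comparison cells these log2 fold changes were -0.69, -2.19, -1.36 and -0.88. Ret (-0.28) and Id4 (-0.15) did not pass.

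Crabp1, the retinoic acid binding gene that was higher in positive cells, was higher again in Plzf lu/lu. It had 194, 203 and 167 CPM in Plzf +/+ and 425 and 231 CPM in Plzf lu/lu (log2 fold change 0.98, SE 0.20, edgeR adjusted p = 0.000653). The genotypes did not overlap, and the log2 fold change in comparison cells was 0.61. Leaving out a library moved it between 0.28 and 1.17, with the call lost without Plzf lu/lu plate 3 or Plzf +/+ plate 1. Utf1, a chromatin factor of undifferentiated spermatogonia, had 5.66, 7 and 10 CPM against 37.6 and 24.4 CPM (log2 fold change 2.25, edgeR adjusted p = 0.0322). These values rest on 36 UMIs, with 3 in Plzf +/+ and 2 in Plzf lu/lu on plate 4. Only 3 fits without a library tested Utf1, and its call was lost without Plzf +/+ plate 2 and with DESeq2.

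Kit and Stra8 had 72.1 and 48.7 CPM and 631 and 438 CPM in the Plzf lu/lu positive cells, and 63 to 81.1 CPM and 362 to 543 CPM in Plzf +/+, ranges that overlapped. Of 38 KIT signalling and 21 meiotic genes 0 were called, near what the 2.73% of all genes would give. Of 52 G2 and mitosis genes 3 fell, where 1.37% of all genes fell. They were Mki67 (302, 161 and 325 CPM against 131 and 134 CPM, log2 fold change -0.99, edgeR adjusted p = 0.0134), Cenpf (-0.80, edgeR adjusted p = 0.00209) and Cenpe (-0.82, edgeR adjusted p = 0.00248). Each was lower in both Plzf lu/lu libraries, and each call was lost without Plzf +/+ plate 1. The shift was not particular to positive cells. In comparison cells 13 of 52 such genes fell and 1 rose, where 7.03% of all genes fell. The cyclin gene Ccnd1 had 111, 110 and 107 CPM against 49.6 and 12.2 CPM (log2 fold change -1.30, edgeR adjusted p = 0.00672). Ung, which encodes uracil DNA glycosylase, had 183, 233 and 147 CPM against 340 and 317 CPM (log2 fold change 0.81, edgeR adjusted p = 0.00839). Of 43 S phase genes Ung rose and Casp8ap2, a histone gene regulator, fell (log2 fold change -0.84, edgeR adjusted p = 0.0168).

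The homeobox gene Lhx2 had 49, 60.6 and 67 CPM against 6.01 and 0 CPM (log2 fold change -3.37, edgeR adjusted p = 4.61e-05), and Malat1 had 2210, 1690 and 2180 CPM against 482 and 718 CPM (-1.85, edgeR adjusted p = 1.46e-15). The genotypes did not overlap for either. The pseudogene Rps15a-ps8, which can share reads with its parent gene, had 108, 110 and 134 CPM against 1180 and 1080 CPM (log2 fold change 3.31). The predicted gene Gm12751 had 0, 1 and 0 UMIs against 34 and 6 UMIs. Plate 4 alone, where both genotypes shared a plate but whose libraries also entered that fit, gave log2 fold changes of -2.67 for Zbtb16, 0.52 for Crabp1 and -0.77 for Gfra1, from 9 Plzf lu/lu cells. Some were much smaller there, such as Gm16580 (-0.31 against -1.40) and Gm10722 (0.71 against 2.76). Sohlh1 (-0.09), Dnmt3b (-0.41) and Gmnn (0.30), which were higher in positive cells, did not pass between genotypes.

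**Figure D5:**
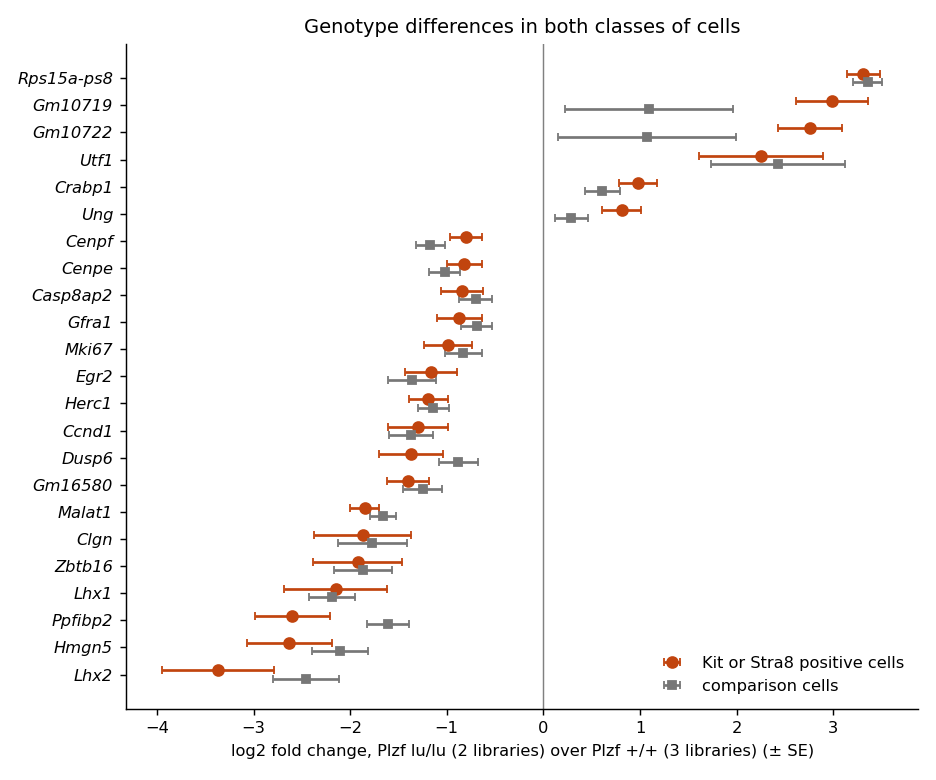
Log2 fold change ± SE between Plzf lu/lu and Plzf +/+ in comparison cells and in Kit or Stra8 positive cells, for genes chosen for naming in the genotype comparison. Circles are positive cells and squares comparison cells. Zbtb16 has -1.87 and -1.92 and Crabp1 0.61 and 0.98.

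The same contrast in the 735 comparison cells gave 1550 calls of 10491 genes (14.8%), 813 higher in Plzf lu/lu (7.75%) and 737 lower (7.03%). Its sums are larger, so the numbers of calls are not comparable. Whether genotype acted differently in the 2 classes was tested as an interaction over matched sums, which called 4 of 8424 genes (0.0475%), with 479 at an unadjusted p under 0.05 and 0 called by DESeq2. Of these, Hes1, a transcriptional target of Notch signalling, had 78.6, 67.7, 100, 149 and 59.2 CPM in positive cells and 134, 107, 93.6, 51.2 and 19.8 CPM in comparison cells. It was lower in positive cells on Plzf +/+ plates 1 and 2 and higher in both Plzf lu/lu libraries (interaction 2.05 on the log2 scale, SE 0.38, edgeR adjusted p = 0.000239). The Plzf lu/lu plate 4 values rest on 3 and 1 UMIs, and the call was lost without Plzf lu/lu plate 3.

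Markers of other cell types were low in both classes, and their part in the results was not tested. Sertoli cell markers (16 of 17 with a UMI) summed to 410 to 477 CPM in positive and 337 to 449 CPM in comparison cells, higher in positive cells in 3 of 5 libraries. Ctsl, a protease gene that other cells also express, gave 82.1% and 75.6% of these UMIs, and Fshr was at 0. Pachytene markers (all 13 with a UMI, 220 to 390 against 139 to 377 CPM) and spermatid markers (14 of 16 with a UMI, 89.2 to 308 against 79.2 to 279 CPM) were higher in 2 of 5 libraries. Mast cells also express Kit. Of 9 mast cell markers 3 were in the tables, with 25 UMIs in positive cells, 4.73 to 19.5 CPM against 0 to 14.6 CPM, higher in 5 of 5 libraries, and Cma1 was at 0. Leydig cell markers were at most 4.39 CPM, myoid markers 20.5 CPM, macrophage markers 19.5 CPM, erythroid markers 4.39 CPM and endothelial markers 58.5 CPM in positive cells. Myoid markers were higher in positive cells in 4 of 5 libraries (24 UMIs against 13). Erythroid and endothelial markers were higher in 2, Leydig markers in 1 and macrophage markers in 0. T and NK cell markers were at most 9.46 CPM in positive cells and 130 CPM in comparison cells, where 78 of 138 UMIs came from 1 cell of Plzf lu/lu plate 3. Cells without any Ldhc, Clu or spermatid UMI gave 30 calls, and there the stem cell list had a median of -0.25.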

How the data were processed

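Single tdTOMATO-positive testis cells were measured in 5 libraries on 4 plates. The authors deposited raw UMI counts per gene symbol and cell, not normalized, in 1 table per genotype, with 26041 symbols in all. The submitters' processing notes name bcl2fastq 2.18.0.12, Picard 2.9.3, STAR 2.5.4a and GRCm38. A symbol missing from a table was taken as 0. Genotype and plate came from the labels and the column endings that match them, and no column of cells was left unused.

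Counts of the chosen cells were summed per library and class and tested with edgeR 4.0.16 (R 4.3.3, quasi-likelihood, TMM, filterByExpr, Benjamini-Hochberg adjusted p below 0.05), with the library as a block where both classes came from each library. The study took cells as replicates, whereas here the 5 libraries were. Pairs were chosen within a library to minimise the summed log2 ratio of UMI sums (scipy 1.17.1). SE was the log2 fold change divided by the square root of F. Thinning used seed 1. The matched fit had 4 residual degrees of freedom, and its biological coefficient of variation was 0.0816. The fits against matched comparison cells and between genotypes in positive cells were tested on simulated data, and the others were not.

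The named genes were the 10 called genes of smallest p in each direction (5 between genotypes) and every called member of the gene lists. Others were named as list members or after their values were seen. The cells and the 20 lists (368 genes, 18 of them not in the tables) were chosen with earlier results of these data known. Alternatives were DESeq2 1.42.0, other scaling, filters, matching and classes, and leaving out each library. Motifs were searched in RefSeq promoters of GRCm38.p6. Some genes are not reported here.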

Additional observations from a re-analysis of the deposited data

Results flagged for a closer look

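The difference of the Plzf lu/lu effect between Kit or Stra8 positive cells and matched comparison cells was called for 4 genes by edgeR's quasi-likelihood test of the interaction. Hes1 had an interaction of 2.05 on the log2 scale (SE 0.38, edgeR adjusted p = 0.000239), positive cells being higher in both Plzf lu/lu libraries and lower in 2 of 3 Plzf +/+ libraries. It stayed between 1.85 and 2.26 when each library was left out, without a call when that library was Plzf lu/lu plate 3.

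The other 3 genes are predicted genes with near-identical names whose reads may be shared between copies. Gm10722 had an interaction of 2.58 (SE 0.40, edgeR adjusted p = 1.04e-06), Gm10719 of 2.86 (SE 0.45, edgeR adjusted p = 1.04e-06) and Gm10715 of 2.86 (SE 0.62, edgeR adjusted p = 0.00844). In the comparison cells of Plzf +/+ plate 2, a single cell held 66 of 86 UMIs of Gm10722, 52 of 66 of Gm10719 and 23 of 32 of Gm10715. All 3 lost their call without Plzf +/+ plate 2 and without Plzf lu/lu plate 3. Leaving out a library moved Gm10722 between 0.94 and 9.46, Gm10719 between 1.5 and 7.48 and Gm10715 between -3.49 and 3.59. DESeq2 called 0 genes.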

How the results depend on the processing

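Against matched comparison cells, the 228 calls became 26 with DESeq2, 535 without matching, 92 with classes set at 2000 UMIs per cell, 38 with Kit alone, 101 with the Plzf +/+ libraries alone, and, in alternatives chosen after seeing the data, 2 with exactly 1 UMI and 30 without any Ldhc, Clu or spermatid UMI. Leaving out each library gave 82 (without Plzf lu/lu plate 3) to 280, and 85 without Plzf +/+ plate 1. Without the library as a block, 1 gene was called. No paired analysis was possible between genotypes because they share a plate only on plate 4.

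Between genotypes, the 217 calls in positive cells became 13 with DESeq2, 20 with classes set at 2000 UMIs and 60 with at least 2 UMIs. Leaving out each library gave 27 (without Plzf lu/lu plate 3), 46, 113 and 121 (without Plzf +/+ plates 1, 2 and 4) and 349 (without Plzf lu/lu plate 4). In comparison cells, 1550 calls became 168 with DESeq2 and 111 to 1630 with a library left out, the lowest without Plzf lu/lu plate 3. The 4 interaction calls became 0 with DESeq2, 7 and 13 without Plzf +/+ plates 1 and 4, 4 without plate 2 (1 of them shared), 0 without Plzf lu/lu plate 3 and 12 without Plzf lu/lu plate 4.

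The single call between Stra8 positive and Kit only cells became 0 with DESeq2, 2 without a filter and 45 without matching, and 0 to 1 with a library left out. The 46 calls between cells with at least 2 UMIs and with 1 became 1 with DESeq2, 90 without matching and 14 to 84 with a library left out, the highest without Plzf lu/lu plate 4.

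The difference in share kept its direction, at 4.18 to 8.75 points, under every alternative run. Of the genes named against matched comparison cells, 21 of 39 kept their call in every fit without a library that tested them, and of those named between genotypes 4 of 25. Dnmt3b and Gm12751 were tested in 4 such fits and Gm10719 in 3. Directions reversed with exactly 1 UMI for Pmaip1 (0.20), Gfra1 (0.06) and Sycp3 (-0.05), and in the interaction for Gm10715, which ran from -3.49 without Plzf lu/lu plate 3 to 3.59 without Plzf +/+ plate 4. The cause was not tested. The 5 cells of plate 4 in wells of the other genotype changed 228 calls to 233 when left out, a choice made after seeing the data. Plzf lu/lu plate 4 had 9 positive cells, so fits without plate 3 leave 1 small library for Plzf lu/lu.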

Other observations

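Ribosomal protein genes, noted after their values were seen, were lower in Kit or Stra8 positive cells than in matched comparison cells. Of 79 tested, 19 fell and 0 rose, where 1.8% of all genes fell and 1.48% rose. The median log2 fold change was -0.15 against -0.00 for all genes, and 13 had a value above 0, against 49.7% of all genes. Rpl26 had a log2 fold change of -0.33 (edgeR adjusted p = 9.64e-06), and Rpl22l1, which encodes a paralog of the ribosomal protein RPL22, of -0.59 (edgeR adjusted p = 1.49e-10), both lower in 5 of 5 libraries. Many of these genes have processed pseudogenes that can share their reads.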
